A study of Rattus norvegicus with 10 samples.

Results

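A list of 10 genes transcribed mainly in spermatogenic cells was followed in cultures of rat Sertoli cells, the somatic cells that surround and nourish the germ cells in the seminiferous tubule. The genes are Ddx4, Sycp2, Sycp3, Hspa2 and Ldhc, which germ cells use during meiosis or before it, and Adam2, Crisp2, Odf2, Tcp11 and Prm2, which they use late in meiosis or after it. The genes were taken from a list made with earlier results of these data known. Every probe set whose single gene symbol was on it was kept: 10 probe sets for 10 genes, of 7006 probe sets for 4736 genes with a single symbol. All 10 were bright enough to be tested. The cultures came from 20-day-old rats and had received follicle-stimulating hormone (FSH), the pituitary hormone that acts on Sertoli cells, for 2, 4, 8 or 24 h, and untreated cultures at 0 h were the control. The labels name no strain, FSH dose or other agent. Total RNA was measured on 10 single-colour Affymetrix rat arrays, with 1 array labelled replicate 2 and 1 labelled replicate 1 at each time. One of the 2 h arrays has no number in its label, and it is counted with replicate 1 here, as the other carries the number 2. All untreated arrays are of 0 h, and time in culture therefore cannot be told apart from FSH. Whether the replicates were separate cultures is not stated in the labels. The p-values therefore rest on the spread among these 10 arrays, which may be technical.

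Spermatogenic cells divide as spermatogonia, pass through meiosis as spermatocytes and then reshape into sperm as spermatids. Each stage switches on its own genes, many of them germ cell forms of enzymes and chaperones that other cells make from a related gene. Sertoli cell cultures are prepared from tubules, and germ cells attached to the Sertoli cells can be carried into the dish. In the rat of this age the most advanced germ cells are meiotic spermatocytes. In RNA from a whole culture, fewer cells of a type and less RNA per cell cannot be told apart.

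The Sertoli identity of the cultures was checked on markers. Clu, the abundant secreted clusterin, was bright throughout, at 6791 to 9813 on replicate 2 and 9259 to 13806 on replicate 1. Shbg, which encodes androgen-binding protein, had 617 to 913 on replicate 2 and 583 to 819 on replicate 1. Of the 33 probe sets of the Sertoli list 25 were bright enough to be tested, and 3 (of Ggt1 and Gsta3) were under the floor on every array. Of the pair for Fshr, the FSH receptor, 1 was under the floor on 9 of 10 arrays and the other had 56.7 to 90.6 on replicate 2 and 81.2 to 195 on replicate 1. Intensities are linear and scaled so that every array shares the same 75th percentile of 107.7, and values under a floor of 13.5 carry no order. Replicates of a time correlated at r = 0.867 to 0.905 across the 4439 probe sets tested. Array quality moved with the replicate number: the 3'/5' ratio of the beta-actin control probe sets was 1.48 to 1.76 on replicate 2 and 0.928 to 1.17 on replicate 1, and that of Gapdh was 0.914 to 1.06 against 0.735 to 0.904. The part of RNA quality in the differences between numbers below was not tested. The control replicate 1 array stood apart by its spiked bacterial control CreX, at 17581 against 7342 to 8477 on the other replicate 1 arrays.

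The germ cell markers differed between the replicate numbers. All 10 had a higher fitted level in replicate 2, and 8 passed the test (limma with time as a factor, Benjamini-Hochberg adjusted p under 0.05 over all tested probe sets), where 6.53% of all tested probe sets were called higher, 8.65% lower and 15.2% in either direction. The median log2 difference over the 10 genes was 1.83, beside -0.05 over all tested probe sets. For 8 of the 10 the lowest replicate 2 array lay above the highest replicate 1 array, which held for 5.47% of all tested probe sets. The genes were listed with this difference already known, so the counts describe them and are no independent evidence. The labels do not say what the replicate numbers mark. If the arrays of a number share a single preparation or run, these p-values measure scatter among arrays within it and not among preparations. With no filter on dim probe sets, over 8740 probe sets, 3 of the 10 were called (Hspa2, Crisp2 and Odf2), and without either 8 h array 5 were.

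**Figure D1:**
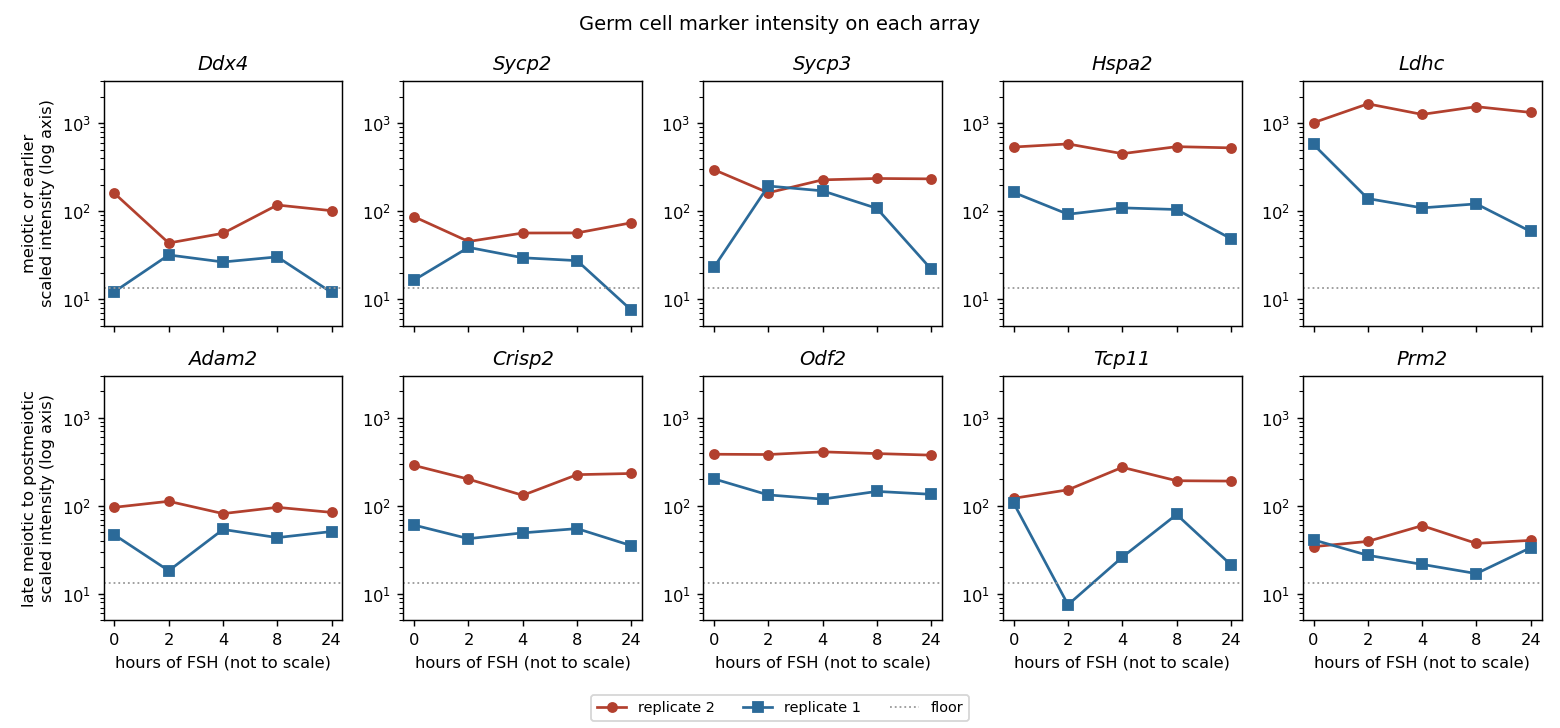
Scaled intensity (log axis) of each gene on each array against hours of FSH, with replicate 2 as circles, replicate 1 as squares and the floor of 13.5 dotted; lines join arrays of 1 replicate number. The replicate 2 arrays lie above the replicate 1 array of the same time everywhere except Sycp3 at 2 h and Prm2 at 0 h.

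Ldhc, the lactate dehydrogenase subunit of spermatocytes and sperm, had 1009, 1652, 1253, 1534 and 1319 on the replicate 2 arrays at 0, 2, 4, 8 and 24 h, and 571, 139, 109, 121 and 58.6 on the replicate 1 arrays at those times. The numbers did not overlap, and the 0 h array of replicate 1 was far above the other replicate 1 arrays. Ldhc was 9.30-fold higher in replicate 2, a log2 difference of 3.22 ± 0.43 (limma estimate ± SE, 5 arrays against 5, adjusted p = 0.00189). Without the filter its adjusted p was 0.0711. Hspa2, a chaperone of the HSP70 family needed by spermatocytes, had 534, 579, 449, 539 and 522 on replicate 2 and 163, 92, 109, 104 and 48.6 on replicate 1. Its replicate 2 arrays varied little, with a coefficient of variation of 9.04% against 39.6% on replicate 1. Hspa2 was 5.44-fold higher in replicate 2 (log2 difference 2.44 ± 0.24, adjusted p = 0.000467), and it was called in 20 of 20 alternative fits. Several of these fits share an estimate, since leaving out either array of a time gives the same number difference.

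Ldhb, which encodes a lactate dehydrogenase subunit of somatic tissues, served as a comparison for Ldhc. One of its probe sets had 1172 to 1951 on replicate 2 and 2088 to 2632 on replicate 1 and was lower in replicate 2 (log2 difference -0.65 ± 0.18, limma adjusted p = 0.0356). The other had 1221 to 1705 on replicate 2 and 1067 to 3111 on replicate 1 and was not called. Ldhc and the called Ldhb probe set thus differed in opposite directions between the numbers. The rat promoters of Ldhc and Ldhb, with those of Hspa2 and Sycp3, are shown so that the sequences of 3 of the markers and of the somatic gene can be compared. Each runs from 250 bases before to 50 bases after the annotated start, 5′ to 3′ on the gene's strand (RefSeq, GRCr8). Capitals mark matches on either strand to TGACGT, the core of the cAMP response element, to AACNGTT, a binding site of MYB factors, and to GGGCGG, the GC box. The 4 windows are chr1:106522745-106523044 (+) for Ldhc, chr4:177177359-177177658 (-) for Ldhb, chr6:100864192-100864491 (+) for Hspa2 and chr7:24761226-24761525 (+) for Sycp3.
Ldhc: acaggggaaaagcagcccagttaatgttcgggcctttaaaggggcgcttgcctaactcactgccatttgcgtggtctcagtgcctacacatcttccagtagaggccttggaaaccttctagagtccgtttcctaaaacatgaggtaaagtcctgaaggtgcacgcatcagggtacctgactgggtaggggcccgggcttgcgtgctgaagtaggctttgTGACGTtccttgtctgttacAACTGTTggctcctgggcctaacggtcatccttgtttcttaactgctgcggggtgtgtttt
Ldhb: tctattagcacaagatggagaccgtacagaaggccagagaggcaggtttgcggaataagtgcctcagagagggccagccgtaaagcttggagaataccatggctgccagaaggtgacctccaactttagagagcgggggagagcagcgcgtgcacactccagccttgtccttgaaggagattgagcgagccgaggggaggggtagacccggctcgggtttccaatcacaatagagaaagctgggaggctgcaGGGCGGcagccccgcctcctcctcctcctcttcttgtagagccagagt
Hspa2: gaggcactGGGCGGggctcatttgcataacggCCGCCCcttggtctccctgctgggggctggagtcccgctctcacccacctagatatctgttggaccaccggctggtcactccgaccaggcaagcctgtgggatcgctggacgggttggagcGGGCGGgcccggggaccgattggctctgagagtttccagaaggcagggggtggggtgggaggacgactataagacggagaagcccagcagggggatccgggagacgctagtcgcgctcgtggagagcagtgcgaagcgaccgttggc
Sycp3: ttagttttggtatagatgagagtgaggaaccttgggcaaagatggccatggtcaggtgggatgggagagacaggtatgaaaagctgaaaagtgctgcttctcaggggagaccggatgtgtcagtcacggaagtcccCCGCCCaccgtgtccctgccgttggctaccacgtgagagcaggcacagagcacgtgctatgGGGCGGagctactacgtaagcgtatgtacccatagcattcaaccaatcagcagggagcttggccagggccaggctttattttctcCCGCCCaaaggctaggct
The Ldhc window held TGACGT at position -31 and AACNGTT at -11, counted as the offset of the match from the start, and no GC box. TGACGT occurs in 7.94% of the 33469 rat promoter windows of the table and AACNGTT in 4.66%. Of the 8 germ cell markers with a promoter in the table, 2 (Ldhc and Ddx4) held TGACGT, 1 (Ldhc) held AACNGTT and 7 held the GC box, which is found in 33.1% of all windows. A match is a string of letters and not a measured site.

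Among the other markers of meiosis, Sycp3, a lateral element protein of the synaptonemal complex that joins paired chromosomes, had 295, 161, 226, 234 and 232 on replicate 2 at 0, 2, 4, 8 and 24 h, and 23.0, 193, 170, 107 and 21.9 on replicate 1. The numbers overlapped, as the replicate 1 arrays at 2 and 4 h reached the range of replicate 2 while those at 0 and 24 h were about as low as each other. The Sycp3 difference of 1.68 ± 0.53 missed the threshold (limma adjusted p = 0.0640) and passed it without the 2 h arrays (2.16, adjusted p = 0.0253). Sycp2, its partner in the lateral element, had 86.0, 45.1, 56.3, 56.4 and 73.6 on replicate 2 and 16.5, 38.7, 29.5, 27.3 and 7.48 on replicate 1. Ddx4, the germ line RNA helicase also known as Vasa, had 159, 43.3, 55.9, 117 and 101 on replicate 2 and 12.1, 31.7, 26.4, 30.1 and 11.9 on replicate 1. In both genes the numbers did not overlap but came close at 2 h. Ddx4 was 3.98-fold higher (log2 difference 1.99 ± 0.43, adjusted p = 0.0137) and Sycp2 2.65-fold higher (1.41 ± 0.37, adjusted p = 0.0298) in replicate 2 by limma. The replicate 1 arrays of Ddx4 at 0 and 24 h and of Sycp2 at 24 h were under the floor, so their differences at those times are lower bounds. The call was lost in 5 of 19 alternative fits for Ddx4 and in 7 of 19 for Sycp2.

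Among the genes of late meiosis and spermatids, Crisp2, a secretory protein of the acrosome, had 288, 201, 132, 226 and 233 on replicate 2 and 60.5, 42.4, 49.4, 55.2 and 35.3 on replicate 1. It was 4.39-fold higher in replicate 2 (log2 difference 2.13 ± 0.21, limma adjusted p = 0.000473). Odf2, a protein of the outer dense fibres of the sperm tail that also has a centrosomal form in somatic cells, had 386, 383, 411, 393 and 377 on replicate 2 and 203, 133, 119, 146 and 135 on replicate 1. It was the steadiest of the 10 across the replicate 2 arrays, with a coefficient of variation of 3.33%, and was 2.69-fold higher there (1.43 ± 0.18, adjusted p = 0.00153). Crisp2 and Odf2 were each called in 20 of 20 alternative fits, of which several share an estimate. Tcp11, which is expressed in spermatids, had 122, 152, 274, 193 and 191 on replicate 2 and 107, 7.53, 26.2, 79.8 and 21.4 on replicate 1. At 0 h its numbers differed by 0.19 log2 units, and at 2 h by at least 3.50, as the replicate 1 array was under the floor. Tcp11 was 4.93-fold higher in replicate 2 (2.30 ± 0.46, adjusted p = 0.0103).

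Adam2, the beta subunit of the sperm surface protein fertilin, had 96.3, 113, 81.7, 96.3 and 84.3 on replicate 2 and 46.8, 18.3, 54.0, 43.6 and 51.1 on replicate 1. It was 2.34-fold higher in replicate 2 (log2 difference 1.22 ± 0.30, limma adjusted p = 0.0236). Leaving out either 2 h array or both gave 0.88, with limma adjusted p from 0.0456 to 0.0580. Prm2, a protamine that packs DNA in elongating spermatids, had 34.4, 39.5, 59.6, 37.5 and 40.6 on replicate 2 and 41.1, 27.5, 21.7, 17.0 and 33.5 on replicate 1. The Prm2 numbers overlapped and the difference of 0.63 ± 0.32 was not called (adjusted p = 0.226). The mean of the replicate 1 arrays of Ddx4, Sycp2 and Prm2 was under the intensity filter of 32.0, so these genes entered the test through their replicate 2 arrays.

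Meiotic and postmeiotic genes were set side by side. In each set of 5 genes, 4 were called higher in replicate 2 and 4 had numbers that did not overlap, and 2 of the 4 meiotic calls (Ddx4 and Sycp2) had passed the filter only through replicate 2. The median log2 difference was 1.99 over the meiotic genes, which is the value of Ddx4, and 1.43 over the postmeiotic genes, and the ranges overlapped (1.41 to 3.22 and 0.63 to 2.30). The order of the sets was not the same at each time. The meiotic median was 2.38 at 0 h, 0.45 at 2 h, 1.08 at 4 h, 1.96 at 8 h and 3.41 at 24 h, while the postmeiotic median was 0.93, 2.25, 1.46, 1.27 and 1.48 at those times. So the meiotic median was above the postmeiotic one at 0, 8 and 24 h and below it at 2 and 4 h. With 1 array of either number at each time, these orders have no replicate check.

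**Figure D2:**
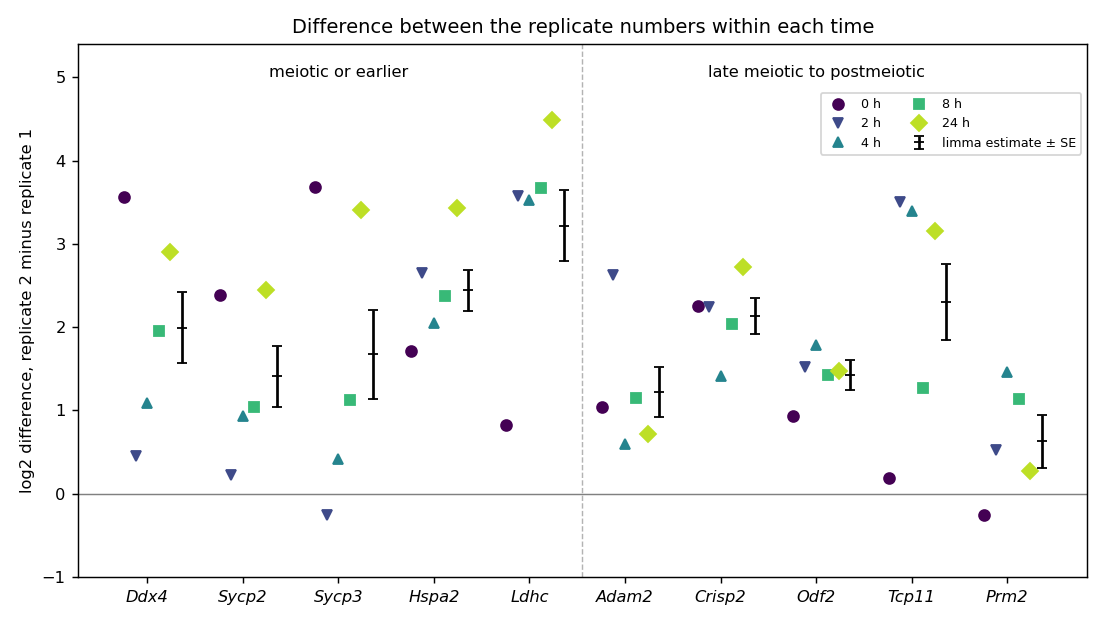
Log2 difference of replicate 2 minus replicate 1 at each of the 5 times (symbols) for each gene, with the limma estimate ± SE beside them. Ddx4, Sycp2 and Sycp3 have their largest differences at 0 and 24 h, while Ldhc, Tcp11 and Prm2 are among those with their smallest at 0 h.

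Whether the markers followed FSH was asked by comparing each time with 0 h, over both numbers. None of the 10 was called at any time in 40 comparisons (limma without the replicate block, 1 mean per time, adjusted p from 0.881 to 0.999), and 0 had an unadjusted p under 0.05, which 4.57%, 7.75%, 9.3% and 4.6% of all tested probe sets had at 2, 4, 8 and 24 h and 7.39% by the F test over all times. Of all tested probe sets, 0.676% were called at 2 h, 0.856% at 4 h, 0.766% at 8 h, 0% at 24 h and 0.991% by the F test over all times. With the replicate number added as a block, limma also called 0 of 40, with 1 unadjusted p under 0.05, while it called 1.22%, 2.95%, 2.68% and 0.0901% of all tested probe sets at 2, 4, 8 and 24 h. The largest fitted changes were those of Ldhc at 24 h (-1.45 ± 1.82 log2 units, or ± 0.68 with the block, adjusted p = 0.996 and 0.562), Tcp11 at 2 h (-1.34 ± 1.41) and Sycp3 at 4 h (1.25 ± 1.23). Hspa2 at 24 h, at -0.89 ± 0.38 with the block, had the unadjusted p under 0.05 and an adjusted p of 0.518. Standard errors over the 40 comparisons were 0.60 to 1.82 without the block and 0.28 to 0.84 with it. Without the block the difference between numbers is part of the spread, and the genes were listed with that difference known. Few calls were thus likely beforehand in that fit, and the shares over all tested probe sets are not a like comparison for it.

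Within each replicate number the courses differed. On replicate 1, all 4 FSH arrays lay below 0 h for 6 of the 10 genes (Hspa2, Ldhc, Crisp2, Odf2, Tcp11 and Prm2), where 28.9% of all tested probe sets did so. The log2 change of Ldhc from 0 h on these arrays was -2.04, -2.39, -2.24 and -3.28 at 2, 4, 8 and 24 h. That of Tcp11 was -2.99 or lower at 2 h, -2.03 at 4 h, -0.43 at 8 h and -2.32 at 24 h. On the same replicate 1 arrays Sycp3 was 3.07, 2.88 and 2.22 units above 0 h at 2, 4 and 8 h and -0.07 at 24 h. Sycp2 was 1.23, 0.84 and 0.73 units above 0 h at 2, 4 and 8 h and at -0.29 or lower at 24 h. Ddx4 was at least 1.24, 0.97 and 1.16 units above 0 h at 2, 4 and 8 h, as its 0 h array was under the floor. In replicate 1, Ldhc and Hspa2 thus lay below 0 h at all 4 times, as did 4 of the 5 postmeiotic genes, and the 3 other meiotic genes lay above it at 2, 4 and 8 h. These are single arrays with no replicate check.

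On replicate 2, Ldhc was 0.31 to 0.71 log2 units above 0 h at the 4 later times, Hspa2 between -0.25 and 0.12, and Odf2 between -0.03 and 0.09. Sycp3 lay below 0 h at every time, at -0.33 to -0.87, as did Sycp2 at -0.23 to -0.93, Ddx4 at -0.44 to -1.87 and Crisp2 at -0.30 to -1.13. Crisp2 was the only one of the 10 below 0 h at every time in both numbers. Tcp11 lay above 0 h at every time in replicate 2, at 0.32, 1.17, 0.66 and 0.65 at 2, 4, 8 and 24 h. Ddx4 and Crisp2 varied more on replicate 2, with coefficients of variation of 49.3% and 26.3%, against 43.3% and 20.6% on replicate 1, and the other 8 varied less. For Ddx4, Sycp2 and Sycp3 the arrays at 2, 4 and 8 h therefore lay below 0 h in replicate 2 and above it in replicate 1. The CreX control and the Ldhc value of control replicate 1 both stood apart from the other replicate 1 arrays, and this array is the base of every replicate 1 change given here. Without the 0 h pair the number difference of Ldhc was 3.82 and 8 of the 10 genes were still called. Leaving out only control replicate 1 gave the same estimate, as did leaving out only control replicate 2, so this check does not single out that array.

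**Figure D3:**
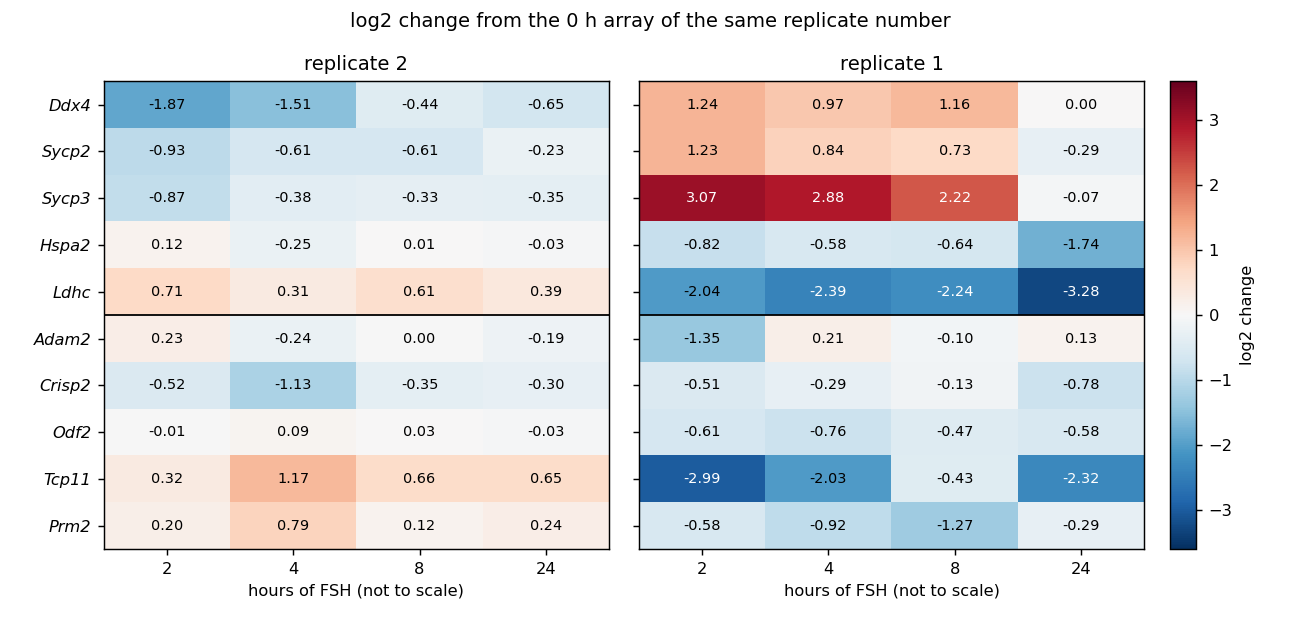
Log2 change of each gene from the 0 h array of the same replicate number (colour and printed value), in replicate 2 and in replicate 1; the line parts meiotic from postmeiotic genes. In replicate 1 Sycp3 reaches 3.07 at 2 h while Ldhc is at -3.28 at 24 h, and in replicate 2 the values run from -1.87 to 1.17.

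Further germ cell genes were tested by few probe sets, and these did not all follow. Which cells of the cultures gave their signal was not tested. Of 30 other genes of meiosis or earlier stages that were listed, 9 were on the array with a single symbol, by 14 probe sets, of which 5 were tested. The 5 stood for 3 genes, since 3 of them were probe sets of Uchl1, a ubiquitin hydrolase of spermatogonia and neurons. By limma 1 was called higher in replicate 2 and 1 lower, and the median over probe sets of -0.67 is that of a Uchl1 probe set. The higher one was Pdha2, the testis form of a pyruvate dehydrogenase subunit, with 51.3 to 58.4 on replicate 2 and 6.93 to 24.2 on replicate 1 (log2 difference 1.65 ± 0.29, adjusted p = 0.00649). Every replicate 1 array of Pdha2 was under the intensity filter of 32.0, so it was tested only through its replicate 2 arrays. The lower one was a probe set of Uchl1, with 861 to 1305 on replicate 2 and 1727 to 2442 on replicate 1 (-0.84 ± 0.19, adjusted p = 0.0186), and the other Uchl1 probe sets were at -0.75 and -0.67. H2ax, a histone variant of DNA repair and of the sex chromosomes in meiosis, was at 0.02 ± 0.17. H1f6, the testis linker histone, was under the intensity filter, at 15.0 to 27.0 on replicate 2 and 3.47 to 14.1 on replicate 1.

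Of 30 other postmeiotic genes listed, 15 were on the array, by 19 probe sets, and 7 of these were under the floor on every array. They included Odf1, an outer dense fibre protein, Akap4, a scaffold of the fibrous sheath of the sperm tail, and Tnp2, a transition protein of spermatids. Of the 19, only Adam5, which was too dim to be tested, had every replicate 2 array above every replicate 1 array. It had 11.1 to 32.8 on replicate 2 and 3.30 to 7.14, all under the floor, on replicate 1. Of the 5 tested, which stood for 4 genes, 0 were called higher and 1 lower by limma. The median of -0.58 is that of 1 of the 2 probe sets of Dnaja4, a co-chaperone, the other being at -0.99. The highest estimates were those of Acrv1, an acrosomal protein, at 0.35 ± 0.23 log2 units (unadjusted p = 0.153 by limma) and of Acr, the acrosomal protease acrosin, at 0.18 ± 0.33 (unadjusted p = 0.601). The called one was Ace, angiotensin-converting enzyme, which has a somatic and a testis form (-1.39 ± 0.27, adjusted p = 0.00963).

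**Figure D4:**
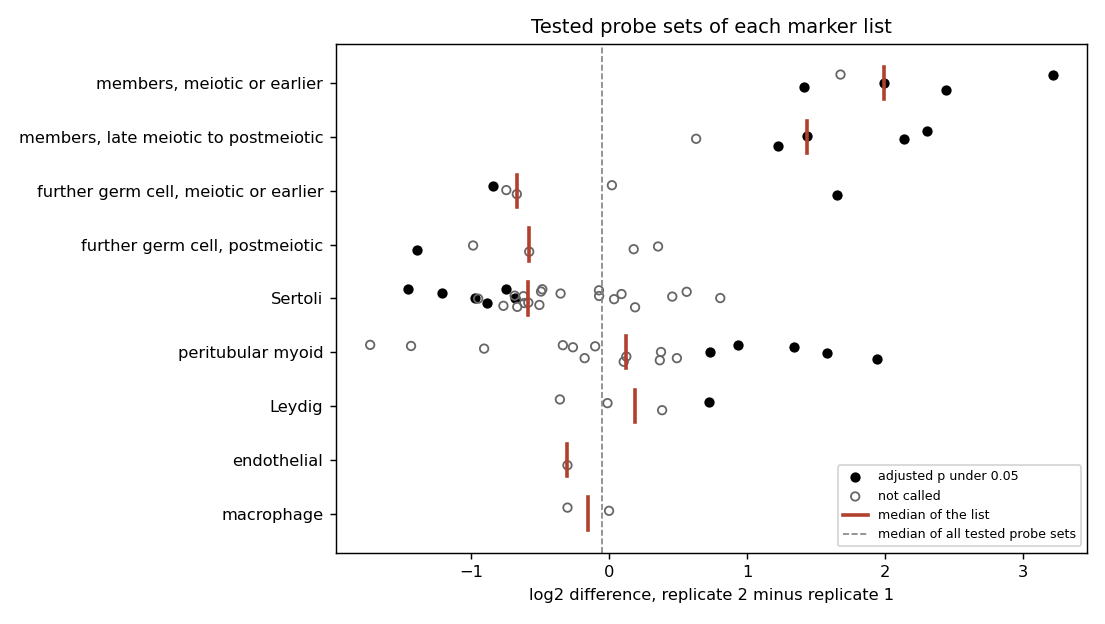
Log2 difference of replicate 2 minus replicate 1 for each tested probe set of the marker lists, filled where the adjusted p is under 0.05, with the median of each list as a bar and that of all tested probe sets dashed. The 10 germ cell markers of interest (the upper pair of rows, labelled members) have 1 probe set each and lie between 0.63 and 3.22; of the 5 points of each further germ cell list, 3 are Uchl1 and 2 are Dnaja4.

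Other cell types were read on marker lists in the same way. Of 25 tested probe sets of Sertoli genes, 0 were higher and 6 lower in replicate 2, with a median of -0.59, and the summed intensity of the list was 16127 to 21082 on replicate 2 and 21214 to 26695 on replicate 1. Of 17 tested probe sets of peritubular myoid genes, 5 were higher and 0 lower, with a median of 0.12. Of the 17 estimates, 10 were positive. The 5 called ones were probe sets of Col1a1, Col1a2, Col3a1 and Fn1, which encode collagens and fibronectin. None of the 3 probe sets of Acta2, the smooth muscle actin, was called, at 0.49, -0.34 and -1.73. The summed level of that list was 2974 to 3929 on replicate 2 and 1895 to 7031 on replicate 1. Its highest value was at 24 h in replicate 1, where Acta2 reached 1363 on 1 of its probe sets. The Leydig list had 4 tested probe sets of 11. Its summed level was lowest at 0 h, at 430 on replicate 2 and 241 on replicate 1, and highest at 4 h, at 1944 and 1621. Much of the sum at its highest came from the 2 probe sets of Star, which carries cholesterol into mitochondria. They reached 774 and 775 on replicate 2. Of the 2, 1 was the only call of the list between the numbers (0.72 ± 0.17, limma adjusted p = 0.0224). The other Star probe set was at -0.01 ± 0.22 (adjusted p = 0.977). Both were called higher with FSH at 2, 4 and 8 h than at 0 h, the called one by 7.51, 13.6 and 11.0-fold (limma adjusted p = 0.0293, 0.00812 and 0.0118). The other Star probe set was higher by 20.2, 43.5 and 20.1-fold (limma adjusted p = 0.00344, 0.000338 and 0.00116). Cyp17a1, a steroidogenic enzyme of Leydig cells, was at most 17.7 on any array. The endothelial list had 1 tested probe set of 6 and summed to 92.9 to 168 on replicate 2 and 152 to 205 on replicate 1, and the macrophage list had 2 of 10 and summed to 147 to 245 and 181 to 229. The part of these cell types in the difference of the germ cell markers was not tested.

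Probe sets with a course like that of Ldhc were found by the root mean square difference of log2 values over the 10 arrays, each centred on its own mean, among 3712 tested probe sets with a single symbol. The nearest were Cmtm2a (0.48 log2 units), Ppp3r2, a testis calcineurin subunit (0.60), Hspa2 (0.62), Fabp9, a fatty acid binding protein of the testis (0.63), and Sord, sorbitol dehydrogenase (0.65). Fabp9 had 421 to 549 on replicate 2 and 28.5 to 93.6 on replicate 1. Tcp11 stood at rank 17, Crisp2 at 21 and Odf2 at 46. Ddx4, Sycp2 and Adam2 followed at ranks 109, 131 and 141, Prm2 at 286 and Sycp3 at 574. The order carries no test, and since it compares courses over the same 10 arrays, the difference of these probe sets between the numbers is part of what chose them.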

How the data were processed

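The authors deposited 1 linear intensity per probe set and array; the processing before deposit and the genome build are not given in the sources used here. Of 8799 probe sets, 59 controls were left out. Scaling brought the 75th percentile of every array to 107.7 (divisors 0.909 to 1.13). A floor of 13.5 (that percentile over 8) replaced lower values before log2. Probe sets with a mean over the 10 arrays of at least 32.0 (the pooled median) were tested, 4439 in all. Printed intensities are scaled and not floored. Gene symbols were read from the platform annotation: 7006 probe sets had 1 symbol, 308 several and 1426 none, and all 10 markers matched RefSeq by gene identifier.

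Tests used limma 3.58.1 in R 4.3.3 (lmFit, eBayes with an intensity trend), with 1 mean per time (5 residual degrees of freedom), or time plus replicate number (4). Benjamini-Hochberg adjustment ran over all tested probe sets of a comparison. The fits were tested on simulated data. Arrays sharing a number deviated together from the time means (r from 0.110 to 0.698 over the 10 pairs of times), so the numbers pair the samples. The pairing was weaker for pairs of times with 0 h (r from 0.110 to 0.417) than for the others (0.476 to 0.698). Figures were drawn with matplotlib 3.10.9.

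Markers and lists were chosen with earlier results of these data known. The rule for named genes took every marker of interest, called genes of the further germ cell lists, Ldhb, and the 5 probe sets nearest to Ldhc. H1f6, Odf1, Akap4, Tnp2, Adam5, Acrv1, Acr, H2ax, Dnaja4 and the markers named from the somatic lists were named after their values were seen. The alternatives tried were other floors, scalings, filters, no intensity trend, the replicate block, no term for time, and leaving out arrays or a pair. The number of arrays limits the precision.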

Additional observations from a re-analysis of the deposited data

Results flagged for a closer look

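Ldhc on the replicate 1 array at 0 h (571) lay far above the other 4 arrays of its number (58.6 to 139). Prm2 on the replicate 2 array at 4 h (59.6) lay above the other 4 of its number (34.4 to 40.6). These are 2 of 20 such comparisons, and chance marks about 1 in 20.

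The change with FSH ran in opposite directions in the 2 replicate numbers for 3 genes, each with all 4 FSH arrays on 1 side of 0 h in replicate 2 and on the other side in replicate 1. The median log2 change for Ldhc was 0.50 in replicate 2 and -2.32 in replicate 1, for Tcp11 0.66 and -2.18, and for Prm2 0.22 and -0.75. The difference was not tested, since each time has 1 array of either number. Of all tested probe sets 17.5% showed such opposite sides, and the 4 changes of a number share its 0 h array.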

How the results depend on the processing

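None of the 10 markers was called against 0 h under any alternative or with any array left out (744 tests over all settings, smallest adjusted p 0.377). Only the replicate block setting fitted the replicate number in these tests. In the other settings the differences between numbers were part of the spread, so those tests could miss a change. With 1 array left out, the Ldhc change at 24 h ran from -3.69 to 0.80 log2 units. The alternatives moved counts over all tested probe sets. The replicate block gave 54, 131, 119 and 4 calls at 2, 4, 8 and 24 h and 143 at any time, against 30, 38, 34, 0 and 44 without it. At 24 h quantile normalization gave 2, no filter 4 and the stricter filter, a mean of at least 100, gave 1.

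Between the replicate numbers, every marker tested stayed higher in replicate 2 under every alternative run. Of all tested probe sets 674 were called, 167 with no filter and 1041 without the 0 h pair. Of the 10 markers 8 were called, 3 with no filter and 5 with the stricter filter, which leaves out Ddx4, Sycp2, Adam2 and Prm2. The median over the postmeiotic genes was then 2.13, against 1.43. Where fewer or more probe sets are tested, both the adjustment and the spread that limma shares over probe sets change. With no filter Crisp2 kept its log2 difference of 2.13, while its adjusted p went from 0.000473 to 0.0237. The cause of the moves was not tested.

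With each array left out in turn, the markers called ran from 5 (without either 8 h array) to 9 (without 2 h replicate 1), and calls over all probe sets from 294 (without 8 h replicate 2) to 1047 (without control replicate 1). The counts against 0 h ran from 0 to 31 at 2 h, 8 to 28 at 4 h, 5 to 26 at 8 h and 19 to 37 at any time, and were 0 at 24 h. Of the single markers, Ddx4, Sycp2, Adam2 and Tcp11 lost their call in some of these fits, and Sycp3 gained one without either 2 h array. Intensities near the floor limit Ddx4, Sycp2 and Prm2.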
